A study of Mus musculus with 10 samples.

Results

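The B cell genes described here are 9 genes whose RNA is characteristic of B lymphocytes, namely *Ms4a1*, *Cd79a*, *Cd79b*, *Cd22*, *Cd72*, *Blnk*, *Bank1*, *Fcrla* and *Spib*. They were chosen by name, and all 9 were found among the 24411 genes of the liver RNA count table. The livers came from male C57BL/6 mice that were 8 weeks old at the start and were fed a high fat diet. Of 10 libraries, 5 came from mice given a non-targeting control antisense oligonucleotide (ASO; replicates 1 to 5) and 5 from mice given an ASO against *Mboat7* (replicates 6 to 10), for 20 weeks, each at 12.5 mg/kg and by intraperitoneal injection. ASOs are short modified nucleic acid strands that cause a matching RNA to be cleaved. *Mboat7* encodes an acyltransferase that places arachidonic acid on lysophosphatidylinositol. A pair of ASOs against *Mboat7* was used in the study, and which of them these mice received is not stated in any source used here. By their labels the control tissue is normal liver and the *Mboat7* ASO tissue is severe fatty liver, so that the ASO and the fatty liver cannot be told apart. The question put to these genes is how the B cell transcripts of the liver differ when *Mboat7* is knocked down.

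B lymphocytes sense antigen through a membrane immunoglobulin that has almost no cytoplasmic tail and therefore signals through a pair of partner chains, which are encoded by *Cd79a* and *Cd79b*. Kinases of the Src family and Syk phosphorylate these chains, and adaptors such as the *Blnk* product then bring Btk and phospholipase C gamma to the membrane. Inhibitory co-receptors, among them CD22 and CD72, recruit the phosphatase SHP-1 and set the threshold of the response. B cells are a minor population of the normal mouse liver, where macrophages and hepatocytes supply far more RNA. Several of the 9 genes are not confined to B cells, since *Cd72* and *Blnk* are also expressed by macrophages and *Spib* by plasmacytoid dendritic cells.

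The promoters of 7 of the 9 genes were found in RefSeq (GRCm38.p6), each as the 250 bases before and the 50 bases after a gene's start as RefSeq places it. The promoters of *Cd72*, *Blnk* and *Cd79a* are shown because they are those among the 7 in which a searched motif was found, and because they belong to the member with the highest fold change, a member that rose by less, and a member that did not pass the test. Capitals mark an ETS core (AGGAAGT, or ACTTCCT where the motif is on the other strand), the longer PU.1 type form of it (GAGGAAGT, or ACTTCCTC) and an octamer (ATTTGCAT, or ATGCAAAT), and each sequence is printed 5′ to 3′ on the strand of its gene.
Cd72, chr4:43454577-43454876, minus strand: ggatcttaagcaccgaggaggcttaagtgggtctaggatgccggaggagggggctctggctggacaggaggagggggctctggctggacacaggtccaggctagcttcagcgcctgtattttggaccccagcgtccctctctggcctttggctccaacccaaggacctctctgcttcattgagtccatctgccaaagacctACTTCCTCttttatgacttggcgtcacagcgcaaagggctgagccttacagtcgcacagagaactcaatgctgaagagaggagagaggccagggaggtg
Blnk, chr19:40994172-40994471, minus strand: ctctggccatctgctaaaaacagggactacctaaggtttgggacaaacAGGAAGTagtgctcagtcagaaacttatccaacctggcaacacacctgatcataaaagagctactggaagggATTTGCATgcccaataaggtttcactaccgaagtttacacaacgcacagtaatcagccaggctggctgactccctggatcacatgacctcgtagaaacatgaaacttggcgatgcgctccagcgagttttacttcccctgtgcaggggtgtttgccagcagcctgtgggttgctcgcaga
Cd79a, chr7:24897247-24897546, plus strand: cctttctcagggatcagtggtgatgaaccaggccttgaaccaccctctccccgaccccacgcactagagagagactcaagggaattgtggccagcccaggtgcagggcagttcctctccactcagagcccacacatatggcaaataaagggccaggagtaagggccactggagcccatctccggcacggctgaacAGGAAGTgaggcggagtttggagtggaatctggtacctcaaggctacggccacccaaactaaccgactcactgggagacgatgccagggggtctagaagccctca
The ETS core was found in 3 of the 7 promoters and in 9.35% of 32851 promoters of the same length. It began 49 bases before the start of *Cd72*, 55 bases before that of *Cd79a* and 202 bases before that of *Blnk*. The PU.1 type form, which contains the ETS core, was found in *Cd72* only (3.2% of all promoters), and the octamer was found in *Blnk* only, 130 bases before the RefSeq start (1.74% of all promoters). The *Blnk* region printed here lies inside the gene as the GENCODE annotation places it (40928927 to 40994535), so the starts of the sources differ for *Blnk*. Both strands were searched, the motifs were chosen after these sequences had been seen, and a match is a description of the letters and not a bound site.

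Among all 9 genes, 5 rose in *Mboat7* ASO livers, none fell, and 4 did not pass the test (edgeR quasi-likelihood test with no filter on low counts, Benjamini-Hochberg adjusted over 17966 genes, FDR of 0.05). Over all genes with a count the same test called 14.6% higher. At an unadjusted p under 0.05, 7 of the 9 were higher and 0 lower, and DESeq2 and limma-voom each called 5 higher and 0 lower. The shares of all genes at these settings are not given here, so these counts have no background to be read against. The genes that rose were *Cd72*, *Cd79b*, *Bank1*, *Cd22* and *Blnk*, and those that did not pass were *Ms4a1*, *Spib*, *Fcrla* and *Cd79a*. The median log2 fold change of the 9 genes was 1.0, against 0.02 over all genes with a count. The 5 genes that rose were also those that reached 1 CPM (a count scaled by the library's total) in at least 1 library, the filter of the study's methods, and *Cd79b* and *Cd22* reached it only in *Mboat7* ASO libraries. In the fit with that filter, 4 of these 5 genes (all but *Blnk*) were more than 2-fold higher, as were 6.43% of the genes so filtered. *Cd22* lay at that threshold, with a log2 fold change of 1.01 with the filter and 1.0 without it. Fold changes and tests of *Cd72*, *Blnk* and *Bank1* are given from the fit with that filter, in which 21.2% of 12609 genes were called higher. Those of the other members are given from the fit with no filter. With no filter, *Cd79b* was at 1.76 ± 0.32 and *Cd22* at 1.0 ± 0.24 (edgeR adjusted p = 0.00333 and 0.00947). Unless marked as SD, values with ± are *Mboat7* ASO against control ASO on the log2 scale with the standard error (n = 5 in each group), while levels are CPM of the library total.

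**Figure D1:**
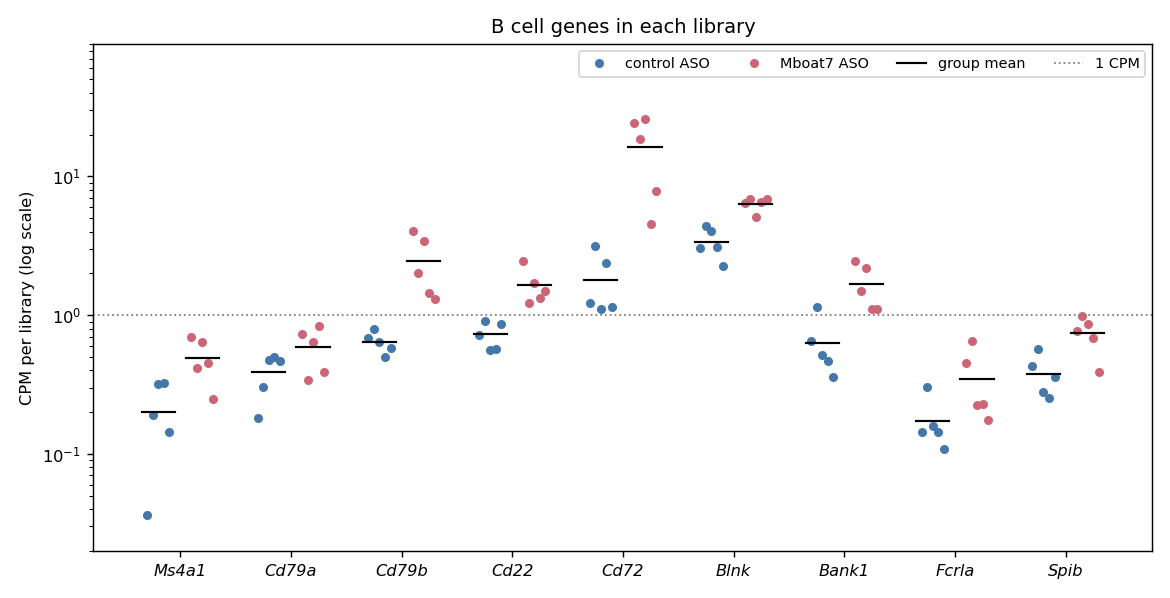
Level of each B cell gene in each library, in CPM on a log axis, for 5 control ASO (blue) and 5 *Mboat7* ASO (red) livers, with the group mean as a line and 1 CPM as a dotted line. *Cd72* spans the widest range, from 1.11 to 25.9 CPM, while *Ms4a1*, *Cd79a*, *Fcrla* and *Spib* stay under 1 CPM in every library.

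*Mboat7* itself was checked first. It had 951 to 1105 counts in control ASO libraries and only 60 to 130 with *Mboat7* ASO (-3.63 ± 0.17, edgeR adjusted p = 1.29e-06), so each library went with its label. The libraries held 25153235 to 28791798 counts, so that a single count is worth 0.0398 CPM in the smallest of them. Apolipoprotein A1, transthyretin and other hepatocyte markers summed to 99700 to 146000 CPM in every library, so the tissue went with its label. *Ptprc*, which encodes the pan-leukocyte surface phosphatase CD45, was used as a reference for leukocyte RNA. Its level was 3.97, 11.1, 3.94, 5.7 and 4.29 CPM in control ASO replicates 1 to 5 and 58, 36.6, 45.3, 12.6 and 16.8 CPM in *Mboat7* ASO replicates 6 to 10 (2.38 ± 0.44, edgeR adjusted p = 0.00342). Replicate 2 was thus the highest control, and replicates 9 and 10 were the lowest of the *Mboat7* ASO group. In whole liver RNA, more cells of a type and more RNA per cell cannot be told apart.

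Of the signalling chains of the B cell receptor, *Cd79b* rose and *Cd79a* did not pass the test. *Cd79b* (chromosome 11, 106311341 to 106314762, minus strand, GRCm38) had 19, 21, 16, 14 and 16 counts in the control ASO libraries and 116, 53, 91, 38 and 37 counts in the *Mboat7* ASO libraries. Every *Mboat7* ASO library was above every control, and replicates 6 and 8 were the highest. The mean level was 0.64 ± 0.112 CPM in controls and 2.45 ± 1.22 CPM with *Mboat7* ASO (SD, n = 5), which is a log2 change of 1.76 ± 0.32 (no filter, edgeR adjusted p = 0.00333).

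*Cd79a*, which encodes the partner chain (chromosome 7, 24897381 to 24902197, plus strand), had 5, 8, 12, 14 and 13 counts in the control ASO libraries and 21, 9, 17, 22 and 11 counts in the *Mboat7* ASO libraries. The groups overlapped, with *Mboat7* ASO replicates 7 and 10 inside the control range. Its mean level was 0.386 ± 0.139 CPM in controls and 0.588 ± 0.214 CPM with *Mboat7* ASO (SD, n = 5). The log2 fold change was 0.44 ± 0.35 (no filter, edgeR adjusted p = 0.388). In total counts the ratio of the groups was 1.53, with a 95% counting interval of 1.06 to 2.21, which covers counting error only and not the spread between libraries. The totals behind it were 52 counts in the controls and 80 in the *Mboat7* ASO group, so this comparison rests on little depth.

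Of the surface genes, *Cd72* and *Cd22* rose and *Ms4a1* did not pass the test. *Cd72*, which encodes a C-type lectin that restrains B cell receptor signalling (chromosome 4, 43446462 to 43454628, minus strand), had 34, 83, 28, 66 and 32 counts in the control ASO libraries and 703, 490, 686, 120 and 221 counts in the *Mboat7* ASO libraries. The groups did not overlap, and within each group *Cd72* was high and low in nearly the same libraries as *Ptprc*. The mean level was 1.8 ± 0.918 CPM in controls and 16.3 ± 9.67 CPM with *Mboat7* ASO (SD, n = 5), which is a log2 change of 3.01 ± 0.50 (edgeR adjusted p = 0.00256). The exons of *Cd72* and of *Tesk1*, a kinase gene on the opposite strand, share 1423 exon bases, and the strand setting of the counting is not stated in any source used here. *Tesk1* had 490 to 751 counts in the 10 libraries and a log2 change of -0.06 ± 0.07 (edgeR adjusted p = 0.527).

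*Cd22*, a sialic acid binding lectin and inhibitory co-receptor (chromosome 7, 30865402 to 30880342, minus strand), had 20, 24, 14, 16 and 24 counts in the control ASO libraries and 71, 32, 45, 35 and 42 counts in the *Mboat7* ASO libraries. The groups did not overlap, and replicate 6 was the highest. The mean level was 0.726 ± 0.163 CPM in controls and 1.64 ± 0.496 CPM with *Mboat7* ASO (SD, n = 5), which is a log2 change of 1.0 ± 0.24 (no filter, edgeR adjusted p = 0.00947). *Cd22* shares 479 exon bases with an antisense transcript, *Gm29439*, whose reads could not be separated from it without strand.

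*Ms4a1*, which encodes the membrane protein CD20 (chromosome 19, 11249675 to 11266241, minus strand), had 1, 5, 8, 9 and 4 counts in the control ASO libraries and 20, 11, 17, 12 and 7 counts in the *Mboat7* ASO libraries. In 4 of the 5 *Mboat7* ASO libraries it was above the highest control level, and replicate 10 was inside the control range. The log2 fold change was 1.11 ± 0.45 (no filter, edgeR adjusted p = 0.0912). The ratio of total counts was 2.46, with a counting interval of 1.55 to 4.0.

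The adaptor and scaffold genes both rose. *Blnk* (chromosome 19, 40928927 to 40994535, minus strand) had 85, 115, 101, 87 and 63 counts in the control ASO libraries and 186, 180, 136, 172 and 193 counts in the *Mboat7* ASO libraries. The groups did not overlap, and replicates 9 and 10, which were low for *Ptprc*, were among the high libraries for *Blnk*. The mean level was 3.37 ± 0.834 CPM in controls and 6.37 ± 0.71 CPM with *Mboat7* ASO (SD, n = 5), which is a log2 change of 0.76 ± 0.17 (edgeR adjusted p = 0.0069).

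*Bank1*, which encodes an ankyrin repeat scaffold for Lyn in B cells (chromosome 3, 136053363 to 136326066, minus strand), had 18, 30, 13, 13 and 10 counts in the control ASO libraries and 71, 39, 58, 29 and 31 counts in the *Mboat7* ASO libraries. Control replicate 2 lay among the lower *Mboat7* ASO libraries, so that 3 of the 5 *Mboat7* ASO libraries were above all controls. The mean level was 0.626 ± 0.305 CPM in controls and 1.67 ± 0.63 CPM with *Mboat7* ASO (SD, n = 5), which is a log2 change of 1.25 ± 0.35 (edgeR adjusted p = 0.0164).

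The remaining members were low in every liver. *Spib*, an ETS family transcription factor gene (chromosome 7, 44525993 to 44532071, minus strand), had 12, 15, 7, 7 and 10 counts in the control ASO libraries and 22, 26, 23, 18 and 11 counts in the *Mboat7* ASO libraries. Replicate 10 was the only *Mboat7* ASO library inside the control range, and the log2 fold change was 0.80 ± 0.32 (no filter, edgeR adjusted p = 0.0875). *Fcrla*, an intracellular Fc receptor-like gene (chromosome 1, 170917576 to 170927583, minus strand), had 4, 8, 4, 4 and 3 counts in the control ASO libraries and 13, 17, 6, 6 and 5 counts in the *Mboat7* ASO libraries. For *Fcrla*, replicates 6 and 7 stood above all controls and the others did not, and the log2 fold change was 0.84 ± 0.45 (no filter, edgeR adjusted p = 0.195). The ratio of total counts was 1.94 for *Spib* (counting interval 1.37 to 2.78) and 2.03 for *Fcrla* (1.21 to 3.50).

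**Figure D2:**
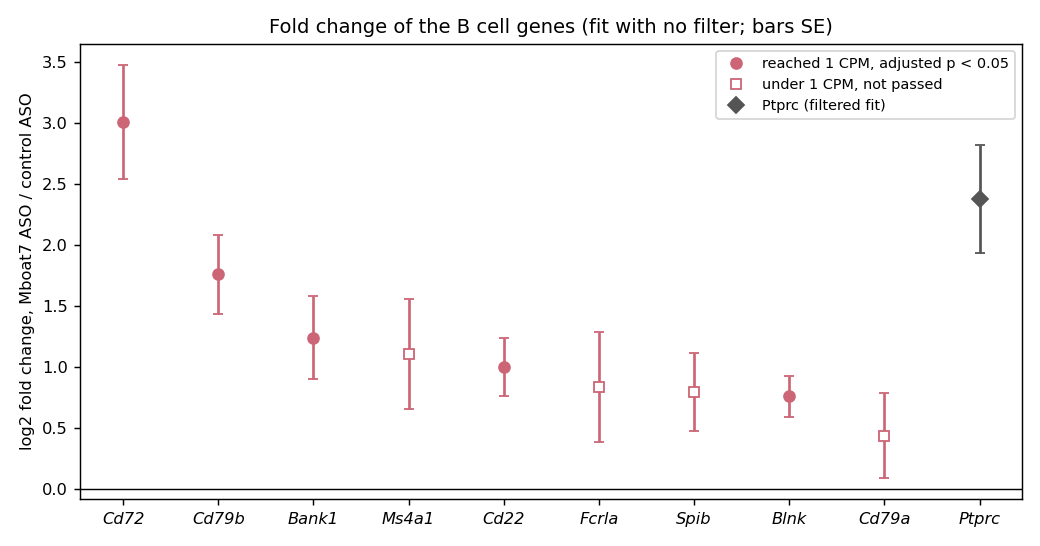
Log2 fold change of each B cell gene in *Mboat7* ASO relative to control ASO livers (fit with no filter, bars are standard errors, n = 5 per group), with *Ptprc* from the filtered fit for reference. All 9 estimates lie above 0, from 0.44 for *Cd79a* to 3.01 for *Cd72*, and the 4 open squares did not pass the test.

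In 4 of the 9 genes (*Cd79b*, *Cd22*, *Cd72* and *Blnk*) every *Mboat7* ASO library was above every control, as was found for 16.3% of 17966 genes with a count. Summed over the 9 genes, the level was 6.31 to 11.7 CPM in control ASO livers and 17.1 to 42.5 CPM in *Mboat7* ASO livers. *Cd72* made up 13.8 to 28.7% of that sum in control ASO livers and 26.5 to 63.6% in *Mboat7* ASO livers. Without *Cd72* the sum was 5.15 to 8.59 CPM and 12 to 18.1 CPM, and the groups still did not overlap.

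Per kilobase of exon, the order of the mean levels in control ASO livers was *Blnk* (0.562 CPM per kb), *Cd72* (0.527), *Cd79b* (0.447), *Cd79a* (0.265), *Cd22* (0.144), *Spib* (0.132), *Fcrla* (0.0984), *Bank1* (0.0837) and *Ms4a1* (0.0327). Among these neighbours the ranges over libraries were separate only between *Cd79b* and *Cd79a*. In *Mboat7* ASO livers *Cd72* came first at 4.76 CPM per kb, followed by *Cd79b* (1.71) and *Blnk* (1.06). *Cd79a* was next at 0.404 CPM per kb, and again the step down to it was the only one at which the ranges of neighbours did not overlap. *Ms4a1* was the lowest in both groups, at 0.0795 CPM per kb in *Mboat7* ASO livers.

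The genes also differed in how they varied among the 5 *Mboat7* ASO livers. *Cd72* averaged 23 CPM in replicates 6 to 8 and 6.2 CPM in replicates 9 and 10, and *Ptprc* averaged 46.6 and 14.7 CPM in the same libraries. *Cd79b* (3.16 and 1.38 CPM), *Bank1* (2.05 and 1.1 CPM) and *Spib* (0.875 and 0.537 CPM) were also lower in both replicates 9 and 10 than in each of replicates 6 to 8. This did not hold for *Blnk* (6.15 and 6.69 CPM), *Cd79a* (0.572 and 0.612 CPM), *Cd22*, *Ms4a1* or *Fcrla*. The split follows the values of these libraries and no label, so it was not tested. With replicates 9 and 10 left out, an alternative added after the data were seen, the same number of the 9 genes rose (5). In the fit with the filter their log2 fold changes were then 3.51 for *Cd72*, 2.13 for *Cd79b*, 1.54 for *Bank1*, 1.13 for *Cd22* and 0.71 for *Blnk*.

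**Figure D3:**
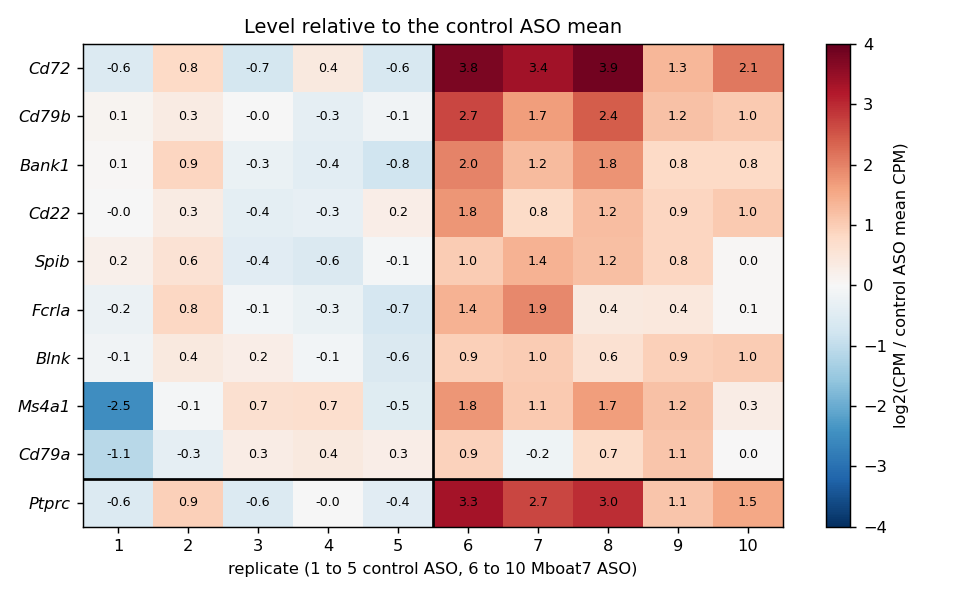
Level of the 9 B cell genes and *Ptprc* in each library as log2 of its CPM over the control ASO mean CPM (red higher, blue lower; columns are replicates 1 to 10 and the line parts the groups). *Cd72* and *Ptprc* share their high columns (6 to 8) and their lower ones (9 and 10), while *Blnk* lies between 0.6 and 1.0 in every *Mboat7* ASO library.

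After the mean of each group was subtracted, the log2 CPM of *Cd72* had a Pearson r of 0.97 with that of *Ptprc* over the 10 libraries, as a description. The r with *Ptprc* was 0.84 for *Bank1* and 0.81 for *Cd79b*, while it was 0.07 for *Blnk* and -0.07 for *Cd79a*. *Cd79b* and *Bank1* had an r of 0.83 with each other, and *Ms4a1* and *Cd79a* an r of 0.77. The values share a library total, and those of the low genes rest on few counts. Among all 12609 genes, the most like *Cd72* by this measure were *Tlr8* (0.99), which encodes an endosomal receptor for RNA, *Cd300lf* (0.98), which encodes a myeloid inhibitory receptor, and *Gngt2* (0.98), a G protein subunit gene. Those most like *Bank1* were *Jak3* (0.98), *Lama4* (0.96) and *Casp1* (0.95), and those most like *Cd79b* were *Itsn1* (0.96), *Rnf157* (0.95) and *Tmed10* (0.95). *Cd22* was nearest to *Gas7* (0.93), *Kif7* (0.92) and *Limch1* (0.92), and *Blnk* to *Pcbp1* (0.93), *Stap2* (0.92) and *Pms2* (0.89).

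To set B cell genes against leukocyte RNA without any normalization, 4 ratios of counts were formed within each library. They were tested on the log2 scale, with 0.5 added to each count, by 2-sided exact permutation over all assignments of the 10 libraries, for which the smallest possible p is 0.00794. The log2 differences include the added 0.5, while the ranges and the libraries said to lie above or below all controls are of the plain counts. *Cd79a* relative to *Ptprc* was 0.0273 to 0.121 in control ASO livers and 0.00938 to 0.0661 in *Mboat7* ASO livers, a log2 difference of -1.85 (exact p = 0.0317), and 4 of the 5 *Mboat7* ASO libraries were below all controls. *Cd72* relative to *Ptprc* went the other way, from 0.269 to 0.415 in control ASO livers to 0.36 to 0.573 in *Mboat7* ASO livers (difference 0.57, exact p = 0.0159), with 4 of 5 libraries above all controls. *Cd79b* relative to *Cd79a* was 1 to 3.8 in control ASO livers and 1.73 to 5.89 in *Mboat7* ASO livers (difference 1.19, exact p = 0.0476, 3 of 5 above). *Cd79b* relative to *Ptprc* was 0.0717 to 0.173 and 0.0552 to 0.114 (difference -0.66, exact p = 0.0635, 2 of 5 below). After Benjamini-Hochberg adjustment over the 4 ratios each adjusted p was 0.0635 (exact permutation), so none passed, and the proportions between these genes were not shown to differ between the groups. These calls turn on single libraries. When control replicate 1, control replicate 2 or *Mboat7* ASO replicate 9 was left out, the ratios of *Cd79a* to *Ptprc* (-1.98, -2.18 and -2.29), *Cd72* to *Ptprc* (0.57, 0.54 and 0.66) and *Cd79b* to *Cd79a* (1.45, 1.33 and 1.48) passed, with exact permutation adjusted p of 0.0317 to 0.0476. *Cd79b* to *Ptprc* passed without control ASO replicate 2 (-0.85, exact permutation adjusted p = 0.0423).

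**Figure D4:**
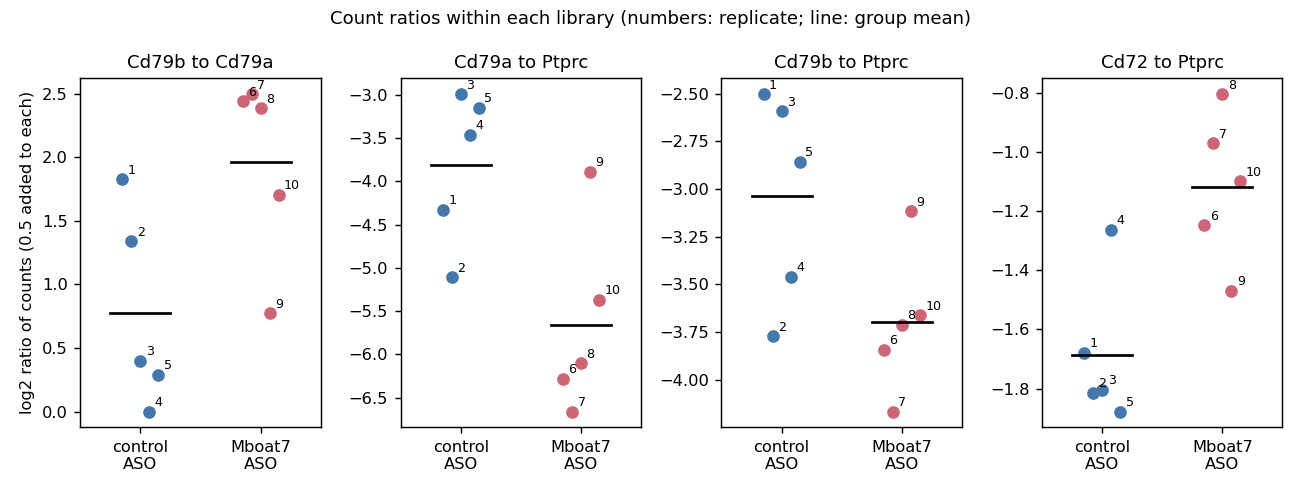
Log2 ratio of counts within each library for 4 pairs of genes, with a point per library (numbered by replicate) and the group mean as a line; the vertical axes differ between panels. For *Cd79a* relative to *Ptprc*, replicate 9 is the only *Mboat7* ASO library inside the control range, and no pair passed after adjustment (adjusted p = 0.0635, exact permutation).

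Other genes of the B lineage were examined next. Of 21 in the count table, 6 rose and none fell in the fit with no filter, with a median log2 fold change of 0.81, where 14.6% of all genes with a count were called higher. Those of lowest p were *Cd180* (2.48 ± 0.45, edgeR adjusted p = 0.00328), a Toll-like receptor homologue, *Fcrl1* (1.71 ± 0.35, no filter), an Fc receptor-like surface gene, *Bcl11a* (2.15 ± 0.47, no filter), a zinc finger transcription factor gene, and *Cd37* (1.06 ± 0.29), a leukocyte tetraspanin. *Fcrl1* and *Bcl11a* reached 1 CPM only in *Mboat7* ASO libraries. A further 3 genes of the list, which mark the B lineage, were named after their values were seen, and none of the 3 passed. *Pax5*, the transcription factor that maintains B cell identity, had 18 and 32 counts, and *Ebf1*, which specifies the lineage, had 27 and 28 counts (no filter, edgeR adjusted p = 0.367 and 0.819). *Cr2*, the complement receptor of mature B cells, had 27 and 35 counts (no filter, edgeR adjusted p = 0.875). Of the 25 genes listed, 21 were in the count table. The immunoglobulin heavy and kappa constant genes *Ighm*, *Ighd* and *Igkc* were listed but were not found there under these symbols.

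The gene families of *Ms4a1* and *Fcrla* were examined as well. Of 10 other *Ms4a* genes with a count, 5 rose and none fell (median 2.0, no filter), where 14.6% of all genes with a count were called higher. They included *Ms4a4c* (2.51 ± 0.53, no filter), *Ms4a6c* (2.40 ± 0.46), *Ms4a6d* (2.34 ± 0.50) and *Ms4a7* (2.10 ± 0.39), of which *Ms4a7* and *Ms4a6c* are known as macrophage genes. Members of this family are alike in sequence, and STAR's gene counting mode, which the study's methods name, counts reads that map uniquely, so that reads shared between members would be lost. Of 4 Fc receptor-like genes with a count, 3 rose with no filter (median 2.46). *Fcrl5*, a receptor gene of some B cell subsets, had 3 counts in the 5 controls together and 1074 in the 5 *Mboat7* ASO livers, with 1.06 to 13.4 CPM in the latter (no filter, edgeR adjusted p = 0.00134). Its control level was therefore at the floor of detection, while *Fcrla* remained under 1 CPM.

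Downstream of the receptor, 18 of 24 signalling genes rose and none fell, with a median log2 fold change of 0.87, where 21.2% of the 12609 genes kept were called higher. With no filter 18 rose as well, where 14.6% of all genes with a count were called higher. At an unadjusted edgeR p under 0.05, 1 of the 24 was lower, and DESeq2 called 0 lower. In 14 of the 24 every *Mboat7* ASO library was above every control, as in 22.1% of the 12609 genes kept. *Prkcb*, a protein kinase C gene, rose by 2.12 ± 0.38, and *Cbl*, a ubiquitin ligase gene, by 0.90 ± 0.14 (log2, edgeR adjusted p = 0.00314 and 0.00202). Many genes of this list are used by myeloid cells as well as by B cells. Of 10 ETS and octamer factors or partners, 5 rose and none fell with no filter (median 0.92), where 14.6% of all genes with a count were called higher. Among them *Pou2f2*, an octamer factor gene, rose by 3.3 ± 0.56 (no filter), *Spi1*, which encodes PU.1, by 1.90 ± 0.43, *Ikzf1*, a lymphoid zinc finger gene, by 1.81 ± 0.37, and *Ets1* by 0.60 ± 0.13.

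Markers of macrophages, of neutrophils and of leukocytes in general also rose, while those of T and NK cells, which were low in every library, did not pass. In the fit with no filter, 14.6% of all genes with a count were called higher. Of 18 macrophage markers 17 rose and none fell (median log2 fold change 1.56, with *Itgam* at 2.34 ± 0.47, *Lgals3* at 2.00 ± 0.39, *Cd68* at 1.70 ± 0.34 and *Lyz2* at 1.33 ± 0.27). Their summed level was 237 to 537 CPM in control ASO livers and 463 to 1480 CPM in *Mboat7* ASO livers. All 12 pan-leukocyte markers rose (median 1.86, 133 to 205 CPM against 214 to 567 CPM), as did 8 of 10 neutrophil markers with no filter (median 3.68, 25.7 to 132 CPM against 59.3 to 272 CPM), of which limma-voom called 5. Of 13 plasmacytoid dendritic cell markers, 4 rose and 1 fell with no filter (median 0.29). Those of lowest p were *Runx2* (2.55 ± 0.41, no filter), *Lair1* (1.73 ± 0.39) and *Tcf4* (0.28 ± 0.08, which turned to -0.08 on removal of the gene-length trend), which rose, and *Upb1* (-0.56 ± 0.10), which fell. *Upb1* was at 344 to 449 CPM in control ASO livers and 274 to 332 CPM in *Mboat7* ASO livers. Which cells its RNA came from was not tested, so its fall is not a result about plasmacytoid dendritic cells. *Siglech*, a surface gene that marks these cells and was named after its values were seen, had 56 and 87 counts and did not pass (no filter, edgeR adjusted p = 0.358). None of 14 T cell markers and none of 8 NK cell markers passed with no filter in edgeR (medians 0.37 and 0.44), and 0 did so at an unadjusted p under 0.05, in DESeq2 or in limma-voom. Only 5 of these T cell and 4 of these NK cell markers reached 1 CPM in any library. Summed levels were 2.27 to 9.27 CPM in controls and 4.1 to 12.6 CPM with *Mboat7* ASO for T cells (NK cells 1.01 to 6.38 and 2.28 to 8.65 CPM). At this depth, not passing does not show that these RNAs were unchanged. Of 10 hepatocyte markers 6 fell and 1 rose with no filter (median -0.45), where 11.3% of all genes were called lower. Since *Cd72*, *Blnk* and many signalling genes are shared with macrophages, the part of macrophage RNA in their rise was not tested. Without replicates 2 and 9, 5 of the 9 B cell genes, 17 macrophage markers and 12 pan-leukocyte markers rose, and with no filter 3 of 14 T cell and 2 of 8 NK cell markers then passed as higher. These are the control highest and the *Mboat7* ASO library lowest in *Ptprc*, so leaving them out widens the gap by construction. The share of all genes called in that fit is not given here, and its counts are not a result about the lists.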

How the data were processed

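Mouse liver RNA was sequenced in 10 libraries as 50 bp single-end reads from directional mRNA libraries. The deposited table holds whole-number read counts for each gene symbol, not normalized, which the authors made by trimming with Trim Galore 0.3.3, quality checks with FastQC 0.11.3 and alignment and gene counting with STAR on mm10, as the submitters' processing notes and the study's methods give it. A further 10 columns of per-sample values matched no label and were not used. Groups follow the labels, which number the libraries 1 to 10 without stating that each is a separate mouse. The study's figure legend gives n = 5 for this sequencing. The p-values refer to the spread among these libraries, and whether part of it is technical was not tested. The chi-square between libraries of 1 group, divided by its degrees of freedom, was 20.1 to 79.2, so none was a copy of another.

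Genes reaching 1 CPM in at least 1 library (12609) were normalized by upper quartile and tested with the quasi-likelihood test of edgeR 4.0.16 (R 4.3.3), with no covariate and Benjamini-Hochberg adjustment over all of them at an FDR of 0.05. Members under that minimum were taken from the same fit with no filter (17966 genes with a count). So were *Cd79b*, *Cd22* and the named genes of the other lists that reached the minimum in no control library. The script was tested on simulated data. Alternatives used other normalization, filters and thresholds, DESeq2 1.42.0, limma 3.58.1 (voom), removal of a gene-length trend, and the left-out libraries.

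The members and the 14 other gene lists were chosen with earlier results of these data known, so a list is described by its counts and median and has no test. Named were all members, *Mboat7*, *Ptprc*, up to 4 genes of lowest p of each list, and the 3 genes most like each member kept. *Siglech*, *Pax5*, *Ebf1* and *Cr2* were named after their values were seen, and *Tesk1* and *Gm29439* for their overlap with members. Some listed genes are counted with their list but not reported here singly. Positions and exon lengths are from GENCODE (GRCm38) and promoters from RefSeq. Counting intervals (95%) cover counting error only, since PCR copies were not told apart.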

Additional observations from a re-analysis of the deposited data

Results flagged for a closer look

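In 28 groups of 5 values (the members, *Ptprc* and the 4 ratios, in each ASO group), 5 single libraries stood far from the rest of their group by Dixon's criterion, where chance gives about 1 in 20. *Blnk* was 5.14 CPM in *Mboat7* ASO replicate 8, against 6.46 to 6.86 CPM elsewhere in its group. Control ASO replicate 2 had an *Fcrla* level of 0.304 CPM against 0.108 to 0.159 CPM elsewhere in its group, a gap of a few counts. The same library had a *Ptprc* level of 11.1 CPM, against 3.94 to 5.7 CPM elsewhere in its group. The ratio of *Cd79a* to *Ptprc* was 0.0661 in *Mboat7* ASO replicate 9 and 0.00938 to 0.0232 in the other *Mboat7* ASO libraries. The ratio of *Cd72* to *Ptprc* was 0.415 in control ASO replicate 4 and 0.269 to 0.309 in the other controls.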

How the results depend on the processing

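The number of B cell genes called was 5 in 23 of 25 alternatives and 4 in the other 2, where a threshold of over 2-fold left out *Blnk* and an FDR of 0.01 left out *Bank1*. All 5 were called in each of the 23 alternative fits, including every one that left out a library. The count of all genes called (4851) was 895 at over 2-fold, 2272 at an FDR of 0.01, and 3579 to 5398 without a single library. With no normalization factor the median of all genes moved by 0.16 and 85.8% of calls were higher, and with the gene-length trend removed it moved by -0.14 and 26.2% were higher, against 55% in the main analysis. Each of the 5 genes was called as higher under both.

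Of the members under 1 CPM, *Spib* passed with no normalization factor (0.96, adjusted p = 0.0403) and on leaving out control replicate 2 or *Mboat7* ASO replicate 10 (0.98 and 0.97, adjusted p = 0.0448 and 0.0419), and *Ms4a1* passed with edgeR's likelihood ratio test (adjusted p = 0.0478). Leaving out single libraries gave log2 differences of 1.0 to 1.48 for *Cd79b* to *Cd79a*, -2.29 to -1.60 for *Cd79a* to *Ptprc*, -0.85 to -0.53 for *Cd79b* to *Ptprc* and 0.49 to 0.68 for *Cd72* to *Ptprc*. At least 1 ratio passed on leaving out control replicate 1, control replicate 2 or *Mboat7* ASO replicate 9. Without replicates 2 and 9 the differences were 1.63, -2.62, -0.99 and 0.63, and the last 3 passed (exact permutation adjusted p = 0.0381), but these are the control highest and the *Mboat7* ASO library lowest in *Ptprc*, so that leaving them out widens the gap by construction. The direction turned for *Tcf4* (-0.08) on removal of the gene-length trend and, without single libraries, for *Nkg7* (-0.33 to 0.74), *Cd8a* (-0.32 to 1.16) and *Gzmb* (-0.38 to 1.02), and the cause was not tested.

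No paired analysis was possible because the groups share no replicate numbers. Depth limits *Ms4a1*, *Cd79a*, *Fcrla* and *Spib* most, at 1 to 26 counts per library. Whether strand was used in the counting is not known from the sources used here.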

Other observations

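Of 8 genes of plasma cells, the antibody-secreting stage, none rose with no filter (median -0.13) and 1 fell, *Xbp1* (-0.51 ± 0.13, edgeR adjusted p = 0.0112), a secretory pathway regulator that hepatocytes also express (154 to 257 CPM in whole liver here). With no filter, 14.6% of all genes with a count were called higher and 11.3% lower. The 8 genes summed to 373 to 493 CPM in control ASO livers and 359 to 402 CPM in *Mboat7* ASO livers. Which cells this RNA came from was not tested, so the median is not a result about plasma cells. At an unadjusted p under 0.05, 2 of the 8 plasma cell genes were higher, a count given without the share of all genes, and DESeq2 and limma-voom called 0 higher. With the filter, *Jchain* passed in 4 of 23 alternatives and *Prdm1* in 2 of 22, with adjusted p of 0.03 to 0.153 and 0.0139 to 0.297 over them. *Jchain*, the joining chain of polymeric immunoglobulin, had 174 counts in the controls together and 286 in the *Mboat7* ASO group (0.54 ± 0.22, edgeR adjusted p = 0.0721). *Prdm1* and *Irf4*, regulators of plasma cell formation, had log2 fold changes of 1.07 ± 0.49 and 0.86 ± 0.41 (no filter, edgeR adjusted p = 0.125 and 0.144). Without replicates 2 and 9, 2 of the 6 plasma cell genes kept passed as higher. Leaving out these extremes of *Ptprc* widens the gap by construction, so this count is not a result about plasma cells.

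Of 9 genes listed as B cell attracting and survival ligands, 2 rose and none fell with no filter (median 0.77), a share near that of all genes called higher (14.6%). That list also holds a receptor gene and a ligand for T cell help. *Tnfsf13b*, which encodes the B cell survival factor BAFF, had 26 counts in the controls together and 92 in the *Mboat7* ASO group (1.61 ± 0.34, no filter, edgeR adjusted p = 0.00582). *Il7*, a lymphocyte growth factor, had 30 and 84 counts (1.27 ± 0.35, no filter, edgeR adjusted p = 0.0183). *Icosl*, a ligand for T cell help, was at 0.78 ± 0.30 (edgeR adjusted p = 0.0573) and passed in 8 of 23 alternatives, DESeq2 among them (adjusted p of 0.0258 to 0.155). *Cxcl12*, a chemokine that retains B cell precursors, was at -0.27 ± 0.14 (edgeR adjusted p = 0.136) and passed as lower in 3 of 23 (adjusted p of 0.012 to 0.531). Without replicates 2 and 9, 4 of the 9 rose, and without replicates 9 and 10, 3 rose. Both choices leave out libraries that were extreme in *Ptprc* within their group, so neither count is a result about this list.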
